A study of Homo sapiens with 18 samples.

Results

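E2F7, RAD51C, CHMP4C, FGFR2, DERA and NEMP2 are 6 of the 3074 genes in a table of normalized counts from SJSA-1 cells, a human osteosarcoma line with an amplified MDM2 gene. They were chosen by name because each was lower than in vehicle with at least 1 single treatment and yet is listed as higher with neocarzinostatin and MI-1061 together. All 6 were found and all passed the filter on low values. The choice used measured values, so the differences of NCS, MI-1061, MD-224 and of NCS with MI-1061 from vehicle are given as descriptions, with no test. Of the 3073 genes tested, 222 (7.22%) were lower with at least 1 single treatment, so these 6 are a small named part of a larger set.

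Cells were kept for 72 h with 1 µg/mL neocarzinostatin (NCS) or with DMSO, refreshed after 48 h, and received a second agent for the last 24 h. The 6 groups of 3 libraries each were NCS with 1 µM MD-224, NCS with 1 µM MI-1061, NCS with DMSO (called NCS), DMSO with 1 µM MD-224 (MD-224), DMSO with 1 µM MI-1061 (MI-1061), and DMSO at both steps (DMSO). All libraries were poly(A)-enriched RNA of 1 cell line, and nothing in the labels says whether replicates were separate cultures, so p-values measure the spread between these libraries, which may be technical. The protocol text writes the inhibitor's name once with other digits, and the titles were followed.

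NCS is an antibiotic of the enediyne class that cuts DNA. MDM2 is the ubiquitin ligase that marks p53 for destruction. MI-1061 blocks the pocket of MDM2 that binds p53, and MD-224 joins an MDM2 ligand of that kind to a ligand of the ubiquitin ligase cereblon, so that MDM2 itself is degraded. Active p53 raises the cell-cycle inhibitor CDKN1A and, through complexes of retinoblastoma-family proteins with E2F factors, lowers many genes of the cell cycle and of DNA repair. The 6 genes do not belong to 1 pathway. E2F7 encodes a repressor that acts on E2F-driven genes and is itself a target of p53. RAD51C acts in DNA repair by homologous recombination, and FGFR2 is a receptor tyrosine kinase for fibroblast growth factors. DERA splits deoxyribose phosphate, a breakdown product of deoxynucleosides. NEMP2 encodes an integral protein of the nuclear envelope, and CHMP4C is a subunit of the membrane-cutting ESCRT-III complex that delays the last step of cell division.

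The listing sets how the values can be read. The lowest ratio of means in the table, NCS + MI-1061 over DMSO, was 1.75, so genes without such a rise are not analysed here. The normalized counts of listed genes summed to between 4594460 and 17252600 per library, which is not a sequencing depth. In 13 libraries reads could be recovered, and there the 6 genes held between 14 reads (CHMP4C) and 9129 reads (E2F7). MDM2 averaged 1572230 ± 337405 normalized counts with MI-1061 and 407832 ± 63782 with MD-224, against 135076 ± 25705 with DMSO (SD, n = 3 each). Of 9 bone lineage markers 3 are listed, with DMSO means of 63887 (SPARC), 14390.0 (COL1A2) and 765 (SPP1) normalized counts, and the other 6 are not analysed here. Of markers of other cells, 3 of 6 haematopoietic, 1 of 3 endothelial and 0 of 5 epithelial ones are listed. The 3 haematopoietic ones (CD68, ITGAM, LAPTM5) summed to 4852 to 4962 with NCS and MI-1061, 3418 to 4506 with NCS and MD-224, 2302 to 2498 with NCS, 783 to 1085 with MD-224 and 2412 to 3052 with MI-1061, against 439.9 to 1111 with DMSO. The endothelial one, VWF, was 28.4-fold higher with MI-1061 than with DMSO (limma adjusted p = 3.19e-09). The part of these markers in the results was not tested. In bulk RNA fewer cells with a transcript and less transcript per cell cannot be told apart.

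The genes lie at chromosome 12, 77021251 to 77065569 (E2F7), chromosome 17, 58692573 to 58735611 (RAD51C), chromosome 10, 121478330 to 121598458 (FGFR2), chromosome 12, 15911332 to 16037381 (DERA) and chromosome 2, 190421421 to 190648785 (NEMP2), in RefSeq on GRCh38.p14. In GENCODE 29, exons of CHMP4C share 250 bases (13.4% of its exonic bases) with ZFAND1 on the opposite strand, and those of NEMP2 share 169 bases (2.59%) with MFSD6 on the opposite strand. Whether reads were counted by strand is not given in the sources used here, so a part of the counts of these 2 genes could come from the neighbour. No exon of the other 4 genes overlapped another gene there.

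The upstream windows of E2F7, DERA and NEMP2 are shown because E2F7 had the clearest response to MD-224 after NCS and because DERA and NEMP2 moved most closely together. Each is the 250 bases before the gene's start in RefSeq (GRCh38.p14), printed 5′ to 3′ on the gene's strand. Capitals mark CCAAT on either strand, written ATTGG where it is read on the other strand, and 4 E2F words (TTTCCCGC, TTTCGCGC, TTTGCCGC and TTTGGCGC) on either strand. They stand at chr12:77065570-77065819 (minus strand), chr12:15911082-15911331 (plus strand) and chr2:190534723-190534972 (minus strand). The window of NEMP2 precedes the start used in the RefSeq table, which lies inside the gene's full annotated span.
E2F7: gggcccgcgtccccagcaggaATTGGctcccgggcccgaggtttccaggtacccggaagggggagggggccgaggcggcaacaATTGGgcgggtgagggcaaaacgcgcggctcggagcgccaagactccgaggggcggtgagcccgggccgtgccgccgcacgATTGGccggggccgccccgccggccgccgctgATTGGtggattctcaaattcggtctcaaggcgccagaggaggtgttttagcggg
DERA: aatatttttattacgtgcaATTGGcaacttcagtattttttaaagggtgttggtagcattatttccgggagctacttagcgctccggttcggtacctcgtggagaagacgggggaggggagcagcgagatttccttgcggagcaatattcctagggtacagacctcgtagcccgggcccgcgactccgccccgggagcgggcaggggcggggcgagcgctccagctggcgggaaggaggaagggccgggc
NEMP2: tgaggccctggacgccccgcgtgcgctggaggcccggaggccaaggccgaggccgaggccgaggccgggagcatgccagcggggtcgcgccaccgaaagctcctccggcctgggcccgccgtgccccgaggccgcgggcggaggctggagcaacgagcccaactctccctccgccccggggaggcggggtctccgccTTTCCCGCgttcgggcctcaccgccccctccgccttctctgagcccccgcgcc

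Windows were found for 5 of the 6 genes. E2F7 held 4 CCAAT matches, all on the opposite strand, at 229, 167, 86 and 54 bases before the start, and 0.874% of 35114 RefSeq windows of the same length held at least 4. DERA and FGFR2 held 1 CCAAT match each, and RAD51C and NEMP2 held 0, where 32% of all windows held at least 1. NEMP2 held the 1 match to an E2F word among the 5 windows, 53 bases before the start, and 2.79% of all windows held one. The cell-cycle element CHR (TTTGAA or TTCGAA, either strand) and a p53 site matched none of the 5 windows, where 14.3% and 0.0256% of all windows held one. No CCAAT match overlapped an E2F word. A match is a description of these letters only, and DERA and NEMP2, whose levels were most alike, had no marked word in common. The GC box (GGGCGG, either strand, not marked) matched 3 times in E2F7, FGFR2 and NEMP2, 2 times in DERA and 0 times in RAD51C. In E2F7 1 of them overlaps a CCAAT match. A GC box was held by 42.6% of all windows and by 57.1% of the 3143 windows of listed genes. Of the windows of listed genes 31.1% held CCAAT, 2.42% an E2F word and 10.2% CHR.

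By their levels with single treatments the genes fell into 3 kinds. E2F7, RAD51C and FGFR2 were lower with NCS and with MD-224 but not with MI-1061, DERA and NEMP2 were lower with all 3, and CHMP4C was lower with MI-1061 alone. The same kinds held 15, 8 and 119 of the 222 lowered genes. In the table as a whole limma called 1.3% of genes lower with NCS, 4.46% lower with MI-1061 and 2.8% lower with MD-224. For MI-1061 that is 137 lower and 2076 higher, and with TMM scaling 925 lower and 942 higher. All 3 libraries lay below all 3 of DMSO for 2.8%, 4.26% and 3.38% of genes with NCS, MI-1061 and MD-224, and above them for 65.2% with MI-1061. The 3 kinds rest on limma calls in the same contrasts on which the members were chosen, so they are a description and not a test. They also depend on the scaling: with TMM scaling the log2 differences of E2F7 and RAD51C with MI-1061 were −0.64 and −0.35.

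**Figure D1:**
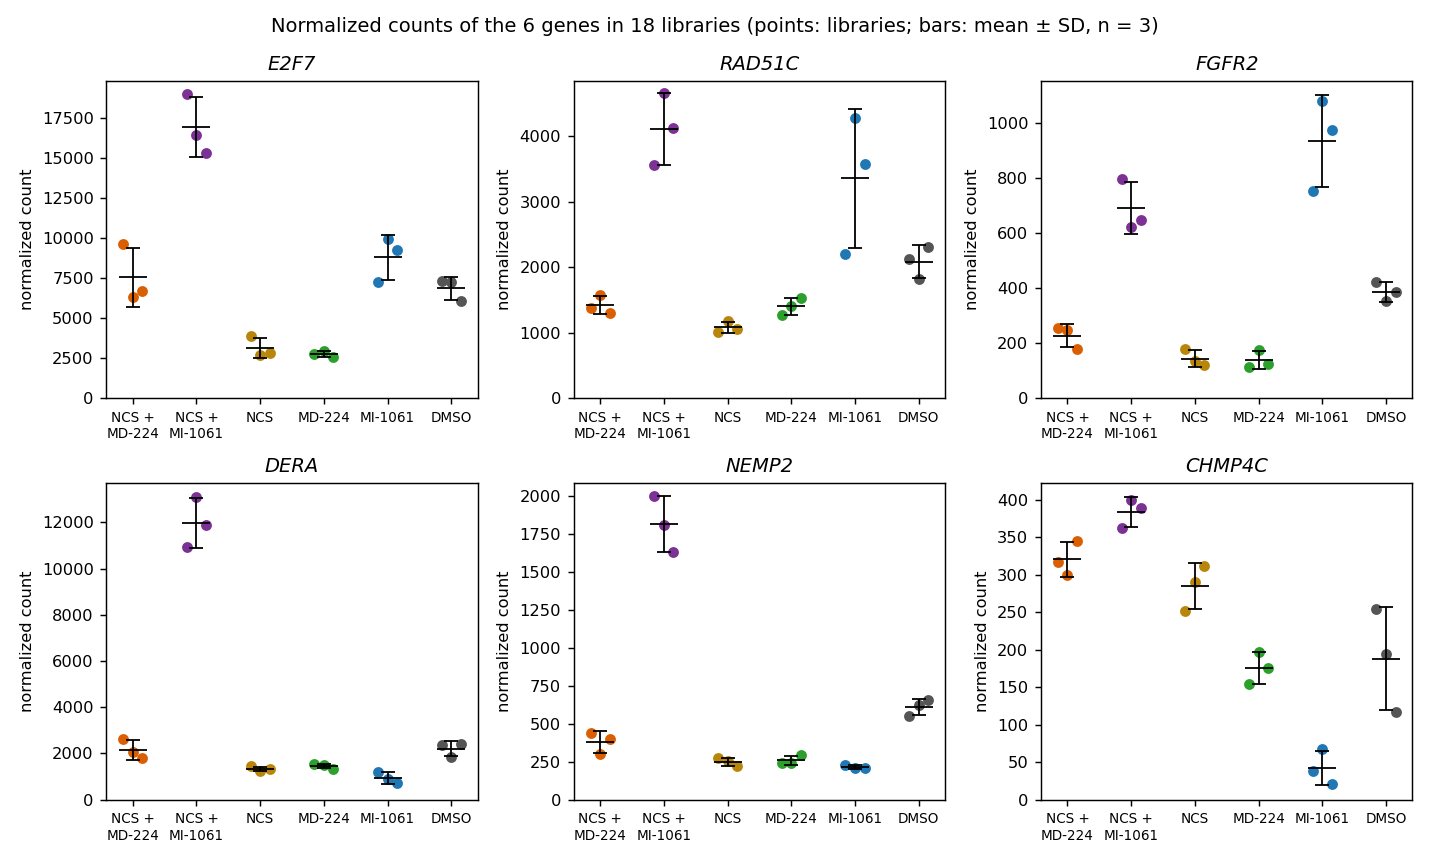
Normalized counts (y axis, linear, from 0) of each gene in the 6 treatment groups (x axis). Points are single libraries and bars the mean ± SD of 3. E2F7, RAD51C and FGFR2 are low with NCS and with MD-224, DERA and NEMP2 are low with every single treatment and stand at means of 11975 and 1815 with NCS + MI-1061, and CHMP4C is lowest with MI-1061 at a mean of 42.4.

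E2F7 had normalized counts of 3846, 2712 and 2822 with NCS and 2747, 2953 and 2583 with MD-224, against 7304.5, 7257 and 6029 with DMSO. With MI-1061 it was at 7234, 9908 and 9221, a range that overlaps DMSO. NCS and MD-224 thus left 45.6% and 40.2% of the DMSO mean, with no overlap of libraries, while MI-1061 stood at 128%. With NCS and MI-1061 together E2F7 reached 18974, 16425 and 15329, the highest level of the 6 groups, and with NCS and MD-224 it was at 9627, 6307 and 6672. The order of means ran from MD-224 and NCS, which overlap, through DMSO, NCS with MD-224 and MI-1061, which overlap in neighbouring pairs, to NCS with MI-1061, whose 3 libraries stood above all others.

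RAD51C had 1009, 1173 and 1052 normalized counts with NCS and 1268, 1399 and 1535 with MD-224, against 2119.7, 1814 and 2309 with DMSO. All 6 treated libraries lay below DMSO, at 51.8% and 67.3% of its mean. With MI-1061 the values were 2205, 4282 and 3579.7. Replicate 1 lay within the DMSO range, so the log2 difference from DMSO of 0.64 (SE 0.19) was 0.92 without it and −0.35 with TMM scaling. The combination of NCS and MI-1061 gave 3564, 4656 and 4119.6, above every DMSO library but overlapping MI-1061 alone. NCS with MD-224 gave 1375, 1569 and 1301, below every DMSO library.

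FGFR2 had 177, 133 and 120.03 normalized counts with NCS and 112, 174 and 125 with MD-224, against 422, 351 and 385 with DMSO. These are 37.1% and 35.5% of the DMSO mean. MI-1061 went the other way, with 752, 1079 and 971, or 242% of DMSO, and no overlap. That is a log2 difference of 1.26 (SE 0.22), where the median of all genes was 0.996. With TMM scaling the FGFR2 difference was 0.27 (SE 0.21). With NCS and MI-1061 FGFR2 was at 796, 622 and 648, so the combination did not exceed MI-1061 alone and the 2 groups overlapped (log2 −0.43, SE 0.22). NCS with MD-224 gave 255, 246 and 178, below every DMSO library. FGFR2 is also the member nearest the edge of the listing, with a ratio of means of 1.78 where the lowest ratio in the table was 1.75.

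DERA had 1442, 1264 and 1336 normalized counts with NCS, 1526, 1513 and 1347 with MD-224 and 1210.3, 904 and 709 with MI-1061, against 2375, 1859.6 and 2408 with DMSO. Every singly treated library lay below every DMSO library, at 60.9%, 66% and 42.5% of its mean. With NCS and MI-1061 DERA was at 10936, 13090.3 and 11899, a mean 541% of DMSO. That is 13-fold over MI-1061 alone and 8.87-fold over NCS alone. NCS with MD-224 gave 2635, 2057 and 1789, which overlap DMSO.

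NEMP2 had 277, 253 and 220.06 normalized counts with NCS, 241, 241 and 296 with MD-224 and 230.2, 207 and 206 with MI-1061, against 555, 627 and 659 with DMSO. The 3 single treatments left between 35% and 42.3% of the DMSO mean, with no overlap. With NCS and MI-1061 it was at 1999, 1813 and 1631, or 8.41-fold over MI-1061 alone and 7.25-fold over NCS alone. NCS with MD-224 gave 443, 303 and 401, between the single treatments and DMSO and overlapping neither.

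CHMP4C, on chromosome 8 from 81732448 to 81759515, had 38.6, 67.2 and 21.5 normalized counts with MI-1061, against 254, 194 and 117 with DMSO, that is 22.5% of the DMSO mean. With MD-224 it was at 155, 197 and 176, which overlap DMSO, and with NCS at 251, 291 and 312, of which the lowest lies just below the highest DMSO library. The combinations gave 362, 400.15 and 389 with NCS and MI-1061 and 316, 299.6 and 345 with NCS and MD-224, all above DMSO. DMSO replicate 3 was low for this gene, and the MI-1061 libraries held the lowest values of any of the 6 genes.

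With NCS and MI-1061 together all 6 genes lay above every DMSO library, as did 98.5% of all genes tested, and no listed gene had a ratio of means under 1.75. The fold over DMSO was 5.43 for DERA, 2.95 for NEMP2, 2.46 for E2F7, 2.13 for CHMP4C, 1.97 for RAD51C and 1.78 for FGFR2 (SE 0.17 to 0.32 on the log2 scale), where the median of all genes tested was 3.03-fold. DERA alone of the 6 exceeded that median, and the other 5 lay below it. TMM scaling, which takes the listed genes as unchanged on average, moved the median log2 by −1.58, and with it the log2 difference was −0.31 for E2F7, −0.63 for RAD51C, −0.78 for FGFR2, −0.05 for NEMP2, −0.51 for CHMP4C and 0.83 for DERA. TMM scaling moved the medians of the other comparisons by −0.99 to 0.66, and the split between genes called higher and lower changed with it.

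**Figure D2:**
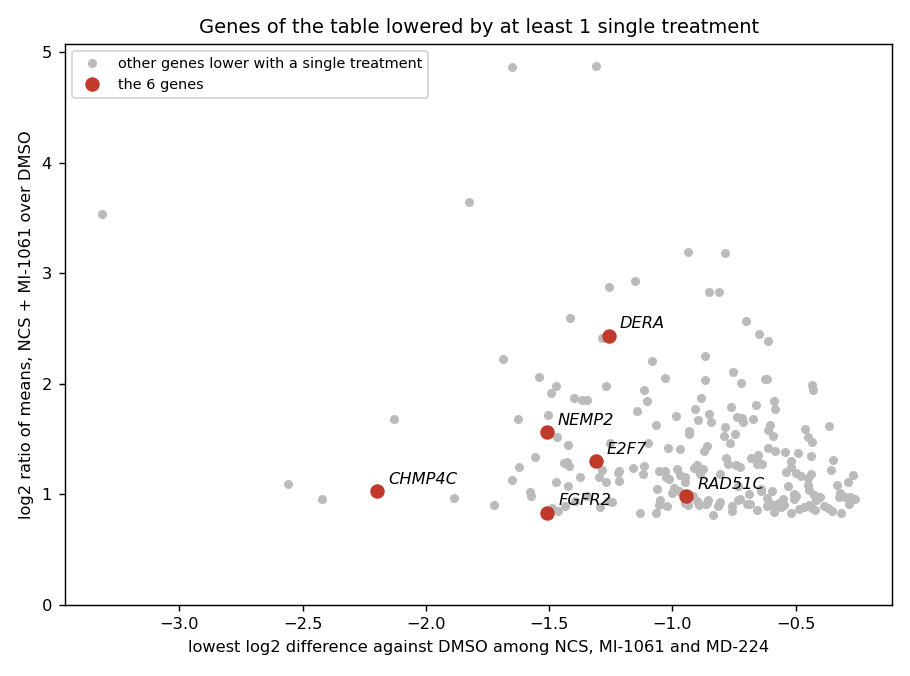
The 222 genes of the table that were called lower with at least 1 single treatment. The x axis is the lowest log2 difference from DMSO among NCS, MI-1061 and MD-224, and the y axis the log2 ratio of means of NCS + MI-1061 over DMSO. DERA combines a drop of −1.26 with the highest ratio of the 6 (5.41 before taking the log), and CHMP4C has the deepest drop of the 6 at −2.20.

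The libraries with NCS and MD-224 took no part in choosing the genes, so their comparisons were tested. In each of them the other group did take part in the choice, which can shift the difference. E2F7, RAD51C, FGFR2, DERA and NEMP2 were lower than DMSO with NCS and with MD-224. For them a higher level against either group was thus favoured in advance. Neither the p-values nor the alternatives allow for that. The 4 comparisons share the 3 libraries with NCS and MD-224 and are not independent. Values are log2 differences of NCS with MD-224 minus the other group, with limma p-values adjusted by Benjamini-Hochberg over all 3073 genes.

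Against NCS alone, adding MD-224 raised E2F7, DERA and NEMP2, while RAD51C, FGFR2 and CHMP4C did not pass. E2F7 was 2.4-fold higher (log2 1.26, SE 0.17; limma adjusted p = 9.33e-05), DERA 1.58-fold (0.66, SE 0.18; adjusted p = 0.0177) and NEMP2 1.52-fold (0.60, SE 0.17; adjusted p = 0.0265). FGFR2 had a log2 difference of 0.66 (SE 0.22; limma adjusted p = 0.0529, and 0.0315 with the replicate number as a block), RAD51C one of 0.39 (95% interval −0.01 to 0.79; adjusted p = 0.18) and CHMP4C one of 0.17 (95% interval −0.51 to 0.85; adjusted p = 0.747). In all but CHMP4C the 3 libraries lay above the 3 with NCS, which held for 40.8% of all genes. Of all genes 15.1% (465) were called higher and 0% (0) lower, with 3 lower at an unadjusted p under 0.05; no other tool was run on these libraries, and with the replicate number as a block 755 genes were called.

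The E2F7 call held under every alternative tried. Those of DERA and NEMP2 did not: with TMM scaling their adjusted p-values were 0.415 and 0.526. DERA was also lost without NCS replicate 2 (0.0688), NCS replicate 3 (0.0545) or NCS with MD-224 replicate 1 (0.13), and NEMP2 without any of these (0.0666, 0.116 and 0.153), without NCS with MD-224 replicate 3 (0.0696) or with these 2 groups fitted alone (0.0558). FGFR2 passed without NCS replicate 1 (0.0407), without NCS with MD-224 replicate 3 (0.0269) or among genes with a mean of at least 50 (0.0454). All of these are limma adjusted p-values. The number of genes called was 298, 287 and 283 without NCS replicates 1, 2 and 3 and 186 without NCS with MD-224 replicate 1.

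**Figure D3:**
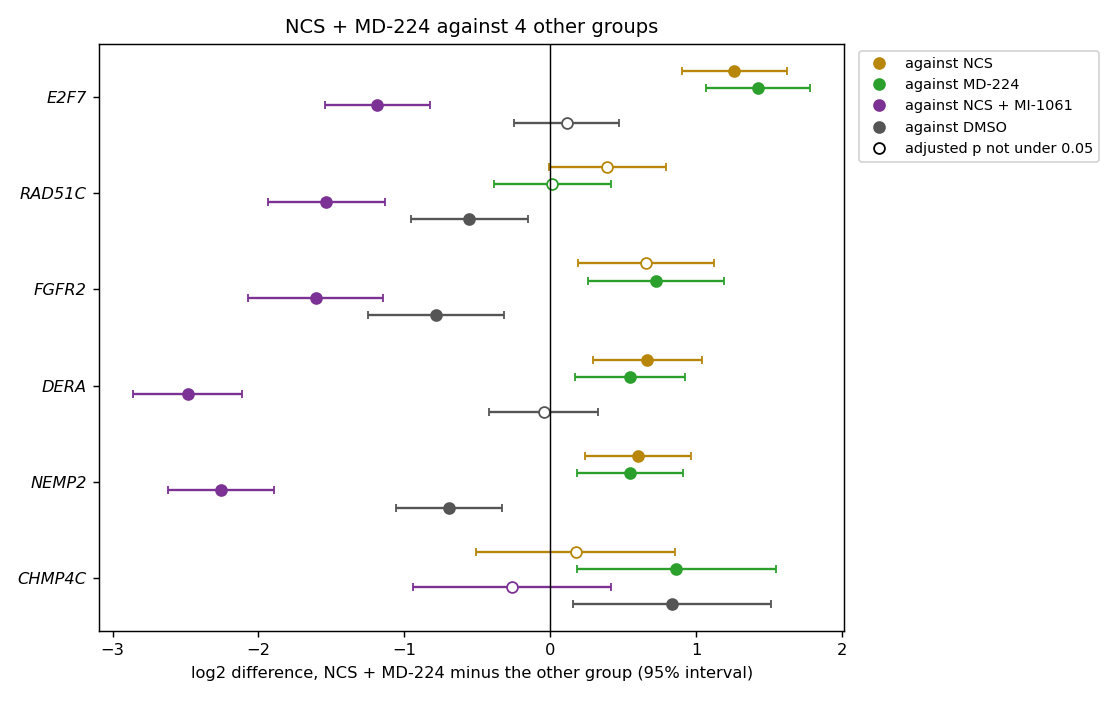
Log2 differences of NCS + MD-224 minus each of 4 other groups (x axis) for the 6 genes (y axis), with 95% intervals from limma. Filled points have an adjusted p under 0.05. Against NCS + MI-1061 the differences run from −2.48 for DERA to −0.26 for CHMP4C, which is the open point there.

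Against MD-224 alone, 5 of the 6 genes were called higher when NCS came first, where 39% of all genes were called higher and 0.586% lower. All of these but CHMP4C were lower with MD-224 than with DMSO, which favoured the higher direction in advance. E2F7 was 2.68-fold higher (log2 1.42, SE 0.17; limma adjusted p = 1.26e-05), and this call held under every alternative tried. CHMP4C (log2 0.87, SE 0.32; limma adjusted p = 0.0411), FGFR2 (0.73, SE 0.22; adjusted p = 0.015), DERA (0.55, SE 0.18; adjusted p = 0.0215) and NEMP2 (0.55, SE 0.17; adjusted p = 0.0184) also passed. RAD51C had a difference of 0.01 (95% interval −0.39 to 0.41; limma adjusted p = 0.959), and its direction changed with scaling and with single libraries left out. With TMM scaling the limma adjusted p-values of CHMP4C, FGFR2, DERA and NEMP2 were 0.364, 0.359, 0.732 and 0.725.

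These 4 calls were each lost in fits with fewer libraries, with the direction kept. CHMP4C was lost without any 1 of the 6 libraries (limma adjusted p between 0.0516 and 0.11), at log2 differences of 0.78 to 0.95. FGFR2 was lost without MD-224 replicate 1 (0.0646) or 3 (0.0545), without NCS with MD-224 replicate 1 (0.0694) or 2 (0.051), and with the 2 groups fitted alone (0.0606). DERA was lost without MD-224 replicate 3 (0.0788) or NCS with MD-224 replicate 1 (0.125). NEMP2 was lost without MD-224 replicate 1 (0.0583) or 2 (0.0544), without NCS with MD-224 replicate 1 (0.0992) or 3 (0.0566), and with the 2 groups fitted alone (0.0824).

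Against DMSO, the cells given NCS and MD-224 had less RAD51C, FGFR2 and NEMP2 and more CHMP4C, while E2F7 and DERA did not pass. FGFR2 was at 0.582-fold (log2 −0.78, SE 0.22; limma adjusted p = 0.00453), NEMP2 at 0.618-fold (−0.69, SE 0.17; adjusted p = 0.00177) and RAD51C at 0.681-fold (−0.55, SE 0.19; adjusted p = 0.0144). Of all genes 0.423% (13) were called lower and 76.1% higher, and these 3 are among those 13. Their libraries all lay below DMSO, as for 0.553% of all genes, and those of CHMP4C above it, as for 73.8%. They are also genes that NCS and MD-224 each left below DMSO, which is how they were chosen, and the same DMSO libraries serve all these comparisons. CHMP4C was 1.78-fold higher (0.83, SE 0.32; limma adjusted p = 0.0268), a direction that flips with TMM scaling (−0.11). E2F7 had a log2 difference of 0.11 (95% interval −0.25 to 0.47; limma adjusted p = 0.538) and DERA one of −0.04 (−0.42 to 0.33; adjusted p = 0.82). With TMM scaling these were −0.83 and −0.99, and both genes were called lower (limma adjusted p = 4.09e-04 and 3.29e-04). RAD51C was lost without DMSO replicate 3 (limma adjusted p = 0.0575), and CHMP4C without DMSO replicate 3 (0.156), NCS with MD-224 replicate 1 (0.0557) or replicate 3 (0.0684).

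MD-224 and MI-1061, which bind MDM2 through ligands of the same kind but differ in that MD-224 also carries a cereblon ligand, can be compared at the same dose and time. After NCS, 5 of the 6 genes were called lower with MD-224 than with MI-1061, where 54.7% of all genes were called lower. The genes were chosen as higher with NCS and MI-1061, and every listed gene had a higher mean there than with DMSO. The lower direction was thus favoured in advance, and the p-values below do not allow for that. The ratio was 0.179 for DERA (log2 −2.48, SE 0.18; limma adjusted p = 5.94e-08), 0.209 for NEMP2 (−2.26, SE 0.17; adjusted p = 8.69e-08), 0.328 for FGFR2 (−1.61, SE 0.22; adjusted p = 1.19e-05), 0.345 for RAD51C (−1.53, SE 0.19; adjusted p = 4.17e-06) and 0.439 for E2F7 (−1.19, SE 0.17; adjusted p = 1.85e-05). These 5 calls held under every alternative tried. CHMP4C had a difference of −0.26 (95% interval −0.94 to 0.42; limma adjusted p = 0.506), which turned to 0.40 with TMM scaling. The median of all genes was −0.67. In these same libraries MDM2 averaged 832815 ± 132103 normalized counts with NCS and MD-224 and 2459880 ± 76699 with NCS and MI-1061 (SD, n = 3 each), and its part in the differences was not tested.

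Without NCS the pair of compounds is described only, since both groups took part in the choice. The ratio of MD-224 over MI-1061 was 0.317 for E2F7, 0.432 for RAD51C and 0.147 for FGFR2, with all MD-224 libraries below all MI-1061 libraries, as for 49.2% of all genes. It was 1.59 for DERA, 1.20 for NEMP2 and 4.48 for CHMP4C, with all libraries above, as for 12.2% of all genes. DERA thus stood lower with MI-1061 than with MD-224 without NCS and higher with MI-1061 than with MD-224 after NCS. The libraries of NEMP2 had the same order as those of DERA, but its log2 difference without NCS (MD-224 minus MI-1061) was 0.27. The 95% interval of that difference ran from −0.09 to 0.63 and so includes both directions.

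The values with each compound are set out without NCS and after it as a description, since the genes were chosen on these groups. MI-1061 left DERA at a log2 difference of −1.26 without NCS and 3.15 after it, NEMP2 at −1.51 and 2.86, and CHMP4C at −2.20 and 0.43, each with no overlap of libraries in either setting. The 0.43 of CHMP4C has a 95% interval of −0.25 to 1.11 and is −0.56 with TMM scaling, so its turn depends on the scaling. Such a turn, from below all vehicle libraries to above them, was seen for 3.61% of all genes. With MI-1061 alone 4.26% of all genes lay below all DMSO libraries, and the 3.61% are among them. Most genes below DMSO with MI-1061 alone thus made this turn. For E2F7, RAD51C and FGFR2 the log2 difference with MI-1061 was 0.35, 0.64 and 1.26 without NCS and 2.45, 1.93 and 2.27 after it. MD-224 left E2F7 at −1.31 without NCS and 1.26 after it, FGFR2 at −1.51 and 0.66, NEMP2 at −1.24 and 0.60, DERA at −0.59 and 0.66, and RAD51C at −0.57 and 0.39, a turn seen for 1.56% (48) of all genes. With MD-224 alone 104 genes lay below all DMSO libraries, and these 48 are among them. CHMP4C was at −0.03 and 0.17 with MD-224. The difference between the settings was not tested, because the comparisons without NCS chose the genes.

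**Figure D4:**
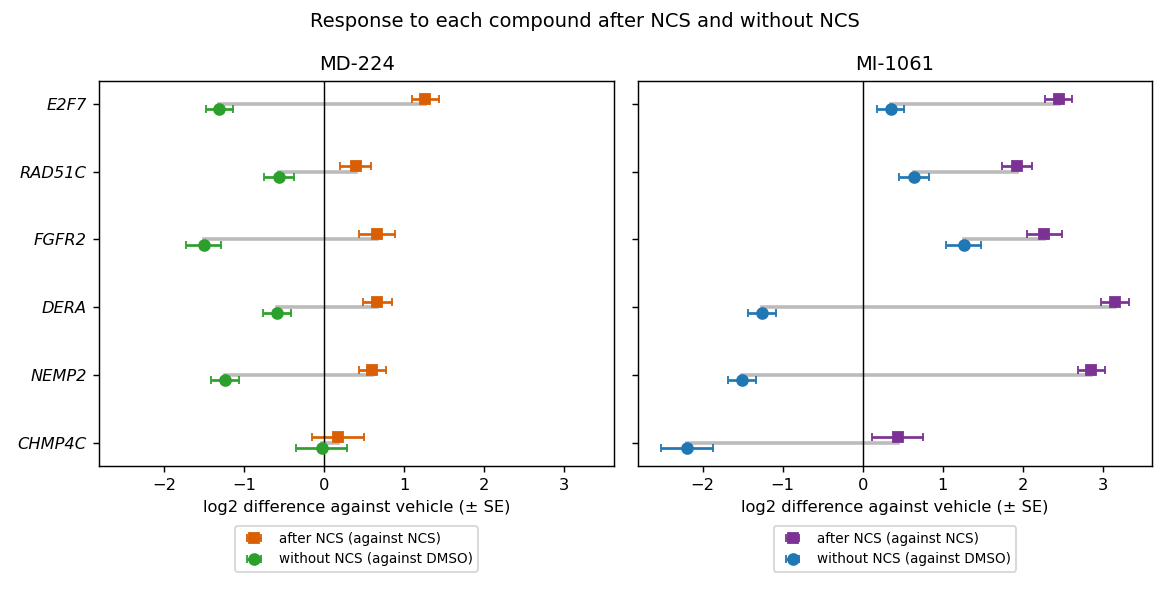
Log2 difference from vehicle (x axis, ± SE) with MD-224 (left) and MI-1061 (right) for each gene (y axis), squares after NCS against NCS and circles without NCS against DMSO. With MI-1061 the marks of DERA lie at 3.15 and −1.26, and with MD-224 those of E2F7 lie at 1.26 and −1.31.

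The 6 profiles fell into loose sets. Over the 18 libraries, on log2 values, Pearson's r was 0.96 between DERA and NEMP2, 0.91 between RAD51C and FGFR2, 0.85 between E2F7 and FGFR2 and 0.82 between E2F7 and RAD51C. CHMP4C stood apart, with r of −0.44 with FGFR2, −0.27 with RAD51C and 0.02 with E2F7. The libraries share groups of 3, so these coefficients mostly describe 6 group levels. Among 2605 genes with a mean of at least 50 the genes most like E2F7 were SMTN (r 0.94), FAM129A and NCEH1 (0.92 each). Those most like RAD51C were SLC16A10 (0.96), TAF3 and CPSF4 (0.95 each), and those most like FGFR2 included SAC3D1 (0.95) and LOC100288181 (0.94). DERA was most like SLC25A16, CCDC43 and SIKE1 (0.97 each), NEMP2 most like DERA, SPAG1 (0.95) and AMOTL1 (0.94), and CHMP4C most like MPZL3, AK4 (0.95 each) and INPP4B (0.94).

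The pathways around the genes were thinly listed, and every listed gene had a higher mean with NCS and MI-1061 than with DMSO. Of 37 genes of homologous recombination and Fanconi repair besides RAD51C, 0 are listed. Of 40 genes of the FGF and MAPK pathway 5 are listed, and 3 of them rose with NCS and MI-1061 against NCS, where 70.5% of all genes did. With the replicate number as a block, or with these groups fitted alone, 5 of them rose. FGF9, a ligand, averaged 193 normalized counts with NCS + MI-1061, against 14.8 with NCS (13.1-fold; limma adjusted p = 2.05e-06), and DUSP5, a phosphatase of ERK, was 3.43-fold higher (adjusted p = 7.1e-06). The adaptor FRS2 was 1.89-fold higher (limma adjusted p = 8.68e-06), a direction that turns to −0.0725 in log2 with TMM scaling. With MD-224 in place of MI-1061, 0 of the 5 passed against NCS, where 15.1% of all genes were called higher. With those groups fitted alone 1 of the 5 passed.

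Of 36 genes of the E2F and retinoblastoma pathway 3 are listed, and all 3 rose with NCS and MI-1061 against NCS, where 70.5% of all genes did. The inhibitor CDKN1A was 11-fold higher (limma adjusted p = 3.83e-11), cyclin CCND2 3.58-fold (adjusted p = 1.78e-05) and the inhibitor CDKN2B 1.42-fold (adjusted p = 0.00631), the last of them at −0.49 in log2 with TMM scaling. With NCS and MD-224 against NCS, CDKN1A alone of the 3 passed, 4.73-fold higher (limma adjusted p = 1.44e-07), where 15.1% of all genes did. Of 32 ESCRT genes besides CHMP4C 8 are listed, and all 8 rose with NCS and MI-1061 against NCS, where 70.5% of all genes did, though with TMM scaling 1 was called higher and 2 lower. Their median log2 difference was 0.86, against 0.97 for all genes. The largest of these was VPS37D, a subunit of ESCRT-I, at 4.15-fold (limma adjusted p = 1.78e-06), followed by the ATPase VPS4B at 2.53-fold (adjusted p = 1.34e-06). CHMP4C itself stood at 1.35-fold there.

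Of 31 genes of the pentose phosphate pathway and nucleoside salvage 3 are listed. PNP, the phosphorylase that releases the ribose phosphates of purine nucleosides, was lower with MI-1061 (0.528-fold; limma adjusted p = 3.32e-04) and with MD-224 (0.467-fold; adjusted p = 2.47e-04) than with DMSO. It was 2.89-fold higher with NCS and MI-1061 than with NCS (limma adjusted p = 1.65e-06), while DERA, which acts on deoxyribose phosphate, stood at 8.87-fold. PNP had a ratio of 0.969 with NCS alone over DMSO (limma adjusted p = 0.849). The others did not follow it: CDA, a cytidine deaminase, was 3.86-fold higher with MI-1061 than with DMSO (limma adjusted p = 9.49e-04) and 2.69-fold higher with NCS (adjusted p = 0.0141), and NT5E, an ecto-nucleotidase, had a ratio of 1.42 with MI-1061 (adjusted p = 0.254). Of 22 genes of the nuclear envelope besides NEMP2, SYNE4 alone is listed, at 2.99-fold with NCS + MI-1061 over NCS alone (limma adjusted p = 9.78e-04).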

How the data were processed

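The table holds gene counts that the authors normalized and deposited (a signal that is never negative), 18 libraries in 6 groups of 3. Of tools and builds, the submitters' processing notes list GRCh38, DESeq2 2.11.40.6, featureCounts 1.6.3 and HISAT2 2.0.5.2, with no roles given. How the 3074 genes were selected and whether counting used strand are not given in the sources used here. In 13 libraries 100% of values below 2000 were whole reads after division by 1 step per library (tolerance 0.01), with 4490870 to 10535800 reads in listed genes. In the other 5 libraries the step could not be fixed, so count tests were run on the 9 libraries without NCS only, as alternatives.

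Values were tested as log2(value + 1) with limma 3.58.1 (R 4.3.3, trend) in 1 fit of all 6 groups, on 3073 genes with at least 10 in at least 3 libraries, with Benjamini-Hochberg adjustment over these genes and a threshold of 0.05. Fold changes are on the log2(value + 1) scale and understate those of low genes. The procedure was run on simulated data with independent libraries and changes in both directions. That run does not bear on the scaling or on same-numbered libraries that deviate together. The members, gene lists and comparisons were chosen with earlier results of these data known. The genes named beside the members were the 3 of highest correlation with each, up to 4 of each pathway list with the smallest adjusted p in NCS with MD-224 or NCS with MI-1061 against NCS, and MDM2 and CDKN1A as checks of the labels. Of the genes most like FGFR2, 1 is not reported here. Alternatives were a pseudocount of 5, no filter, a mean of at least 50, TMM scaling, the replicate number as a block, the compared groups alone, each library left out, and edgeR 4.0.16 and DESeq2 1.42.0 on recovered reads. Same-numbered libraries deviated together in 7 of 11 comparisons (every correlation above 0.1), by the data and not by a statement in the labels. Promoter windows came from RefSeq (GRCh38.p14). Figures were drawn with matplotlib 3.10.9.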

Additional observations from a re-analysis of the deposited data

Results flagged for a closer look

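For 5 genes with MD-224 and 3 genes with MI-1061, all treated libraries lay below their vehicle without NCS and above their vehicle after NCS. The difference between the settings was not tested, since the comparisons without NCS served to choose the genes. After NCS minus without NCS, on the log2 scale, it was 4.41 for DERA, 4.37 for NEMP2 and 2.63 for CHMP4C with MI-1061. The turn of CHMP4C depends on the scaling, since its log2 difference after NCS was 0.43 and, with TMM scaling, −0.56. With MD-224 it was 2.57 for E2F7, 2.17 for FGFR2, 1.84 for NEMP2, 1.26 for DERA and 0.96 for RAD51C.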

How the results depend on the processing

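With TMM scaling the number of genes called was 122 for NCS with MD-224 against NCS (116 higher, 6 lower; 465 and 0 without it), 651 against MD-224 (428 and 223), 907 against NCS with MI-1061 (357 and 550) and 1077 against DMSO (572 and 505). It was 923 for NCS (456 and 467), 1867 for MI-1061 (942 and 925), 684 for MD-224 (327 and 357) and 1436 for NCS with MI-1061 (752 and 684), each against DMSO, and 1326 for NCS with MI-1061 against NCS (733 and 593). TMM takes most listed genes as unchanged, while every listed gene had a higher mean with NCS and MI-1061 than with DMSO. Log2 differences that turned with it were, for NCS with MD-224, CHMP4C −0.15 against NCS, 0.40 against NCS with MI-1061 and −0.11 against DMSO, RAD51C −0.43 against MD-224 and E2F7 −0.83 against DMSO. For MI-1061 against DMSO they were E2F7 −0.64 and RAD51C −0.35, and for NCS with MI-1061 against DMSO CHMP4C −0.51, E2F7 −0.31, FGFR2 −0.78, NEMP2 −0.0455 and RAD51C −0.63. For NCS with MI-1061 they were CHMP4C −0.56, CDKN2B −0.49, FRS2 −0.0725, NT5E −0.0613, STAM −0.00836 and VPS37B −0.0152 against NCS, and RAD51C −0.28 against MI-1061.

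With the replicate block 755 genes were called for NCS with MD-224 against NCS, and FGFR2 passed there; it changed no other call among the 6 genes. Leaving out 1 library gave 186 to 463 genes in that comparison. For MD-224 against DMSO, 1311 genes were called, 809 with these groups alone and 869 with edgeR. Leaving out 1 library, RAD51C against MD-224 ranged between −0.062 and 0.0829, turning to −0.0548 without MD-224 replicate 1 and to its lowest without NCS with MD-224 replicate 2. DERA against DMSO ranged between −0.197 and 0.0824, above 0 without DMSO replicate 1 (0.0112) or 3 (0.0213) or NCS with MD-224 replicate 3 (its highest). E2F7 against DMSO ranged between −0.0759, without NCS with MD-224 replicate 1, and 0.229. The causes were not tested. CHMP4C had 14 reads in its lowest library, one with MI-1061, and FGFR2 98.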

Other observations

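Besides DERA and NEMP2, 6 genes were called lower with all 3 single treatments, and they are named after their values were seen. Mean normalized counts with NCS and MI-1061 and with DMSO were 23953 and 5802 for AMOTL1, 2170.3 and 564 for XRCC4, a factor of DNA end joining, and 3131 and 1238 for TMEM255A. They were 1073 and 471 for the tyrosine kinase SYK, 3491 and 1539 for SPAG1, and 7510.2 and 4169.7 for TMTC3. With MI-1061 alone the means of XRCC4 and SYK were 382 and 209, below those with DMSO.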
